A study of Mus musculus with 31 samples.

Results

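The genes described here are 35 genes of G2 and mitosis, measured by RNA sequencing in haematopoietic stem cells of mice given JAK2-mutant and wild-type marrow. They were chosen by symbol from the gene count table, as mitotic kinases, kinesins, kinetochore and cytokinesis genes, and make up 35 of its 55492 rows. All 35 passed the filter on low counts, and the lowest count of any of them in any library was 86 reads, for Ect2.

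A cell that divides copies its DNA in S phase, passes G2, and then separates its chromosomes in mitosis and its cytoplasm in cytokinesis. The kinase CDK1 with a cyclin partner starts mitosis, a spindle of microtubules and motor proteins pulls on the kinetochores of each chromosome, and the anaphase-promoting complex then marks cyclins and securin for destruction. Most of these transcripts accumulate late in the cycle under the MuvB, B-MYB and FOXM1 factors and are repressed in resting cells. Long-term haematopoietic stem cells (LT-HSCs) are known to rest for long periods, so their content of such transcripts is usually low.

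LT-HSCs were sorted from bone marrow as lineage-negative, Sca1-positive and cKit-positive cells with CD150 and without CD48. The donors were SclCre;FF1;GFP mice, named VF, which carry an inducible transgene of mutant human JAK2 (JAK2-V617F, the kinase mutation of myeloproliferative neoplasms), a Cre driven by Scl regulatory sequences and a GFP reporter. The other donors, SclCre;FF1;Dnmt3Δ/Δ;GFP and named VFDM, also lack Dnmt3a, which sets new DNA methylation. Marrow of either donor was transplanted into wild-type recipients with a 10-fold excess of wild-type marrow, and the labels do not say whether the sort was gated on GFP. VF cells and VFDM cells below are the sorted cells of these recipients, and the share of donor cells among them is not given. From 4 weeks after transplant the recipients were treated for 8 weeks. IFN was pegylated interferon alpha at 25 µg/kg weekly under the skin, AZA was 5-azacytidine, a cytidine analogue that depletes DNA methyltransferases, at 2 mg/kg daily into the peritoneum, and COMBO was both at these doses. The 8 groups were VFDM COMBO with 3 libraries and VFDM AZA, VFDM IFN, VFDM vehicle, VF COMBO, VF AZA, VF IFN and VF vehicle with 4 libraries each. Each group received marrow with mutant JAK2, so no group gives the level of these genes after wild-type marrow alone. The labels do not state that libraries came from separate animals, so p-values reflect only how these libraries vary.

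Promoters are shown for 4 of the genes with the strongest calls below, because late cell-cycle genes are known for a pair of short motifs just upstream of the start. These are the CCAAT box (CCAAT, or ATTGG on the other strand), bound by the factor NF-Y, and the cell cycle genes homology region, CHR (TTTGAA, or TTCAAA on the other strand), bound by the MuvB complex. Each line holds the 250 bases before the RefSeq start of the gene on GRCm38.p6, on the strand of the gene and 5′ to 3′, with both motifs in capitals. Cenpa lies on the plus strand (chr5:30666636-30666885), and Ccnb2 (chr9:70421555-70421804), Mki67 (chr7:135716380-135716629) and Anln (chr9:22389207-22389456) on the minus strand.
Cenpa: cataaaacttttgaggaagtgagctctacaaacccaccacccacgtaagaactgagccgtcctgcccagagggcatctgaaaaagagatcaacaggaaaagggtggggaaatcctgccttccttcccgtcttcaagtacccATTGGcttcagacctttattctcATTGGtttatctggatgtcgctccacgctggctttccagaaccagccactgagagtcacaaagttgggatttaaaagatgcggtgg
Ccnb2: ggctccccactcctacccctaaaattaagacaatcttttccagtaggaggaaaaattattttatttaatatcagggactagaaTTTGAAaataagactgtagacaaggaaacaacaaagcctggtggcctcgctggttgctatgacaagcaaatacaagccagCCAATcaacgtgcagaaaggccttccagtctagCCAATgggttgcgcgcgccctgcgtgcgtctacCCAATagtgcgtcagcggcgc
Mki67: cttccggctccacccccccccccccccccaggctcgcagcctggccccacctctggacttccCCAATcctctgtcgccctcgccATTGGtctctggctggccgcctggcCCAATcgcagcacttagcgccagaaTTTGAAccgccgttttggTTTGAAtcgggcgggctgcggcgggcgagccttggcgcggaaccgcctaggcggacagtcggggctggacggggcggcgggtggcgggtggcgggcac
Anln: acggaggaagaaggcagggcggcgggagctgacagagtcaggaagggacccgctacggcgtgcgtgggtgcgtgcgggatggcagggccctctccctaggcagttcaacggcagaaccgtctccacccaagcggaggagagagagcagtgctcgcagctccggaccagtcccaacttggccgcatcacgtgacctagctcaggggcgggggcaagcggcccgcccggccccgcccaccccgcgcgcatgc
Ccnb2 had 3 CCAAT boxes in a row, at 87, 54 and 21 bases before the start, and a CHR at 167. In Mki67, 3 CCAAT boxes stood at 188, 166 and 141 bases, and 2 CHR motifs at 116 and 98. Cenpa had 2 CCAAT boxes, both on the other strand at 109 and 86 bases, and no CHR in these letters. Neither motif was found in this window of Anln, so the strongest calls did not share them. The RefSeq promoter table used here matched 31 of the 35 genes, all but Aurkb, Ccna2, Kif20a and Tpx2. A gene with 2 listed promoters, such as Prc1 or Ect2, was counted where any of them held the motif. A CCAAT box was in 24 of these 31 genes (77.4%), against 37.5% of 27025 genes, and a CHR in 11 (35.5%), against 18.3%. At least 2 CCAAT boxes were in 16 genes (51.6%), against 11.5% of all genes, and 10 held both motifs (32.3%), against 7.3%. Promoters of 29 DNA replication genes held a CCAAT box in 69.0% and a CHR in 13.8%. Only the exact letters given above were searched, so other spellings of either motif were not counted. These matches describe letters and are not evidence of binding.

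Library totals ran from 17782394 to 73910928 counts, and 17087 to 28851 rows had a count. Fewer than 20000 rows were detected in 8 libraries: VFDM COMBO 3, VFDM AZA 3 and 4, VF COMBO 1, 2 and 3, and VF AZA 2 and 3. All 8 were in groups given AZA, alone or in COMBO, while every vehicle and IFN library had at least 20521 rows. Without these 8, their groups keep only VFDM COMBO 2 and 4, VFDM AZA 1 and 2, VF COMBO 4, and VF AZA 1 and 4. The part of detected rows in the differences from vehicle was not tested. Small and ribosomal RNA took 22.3%, 24.9% and 37.5% of the counts in VF vehicle 1, 2 and 4, and at most 10.5% in every other library. Dnmt3a, the deleted gene, had 119, 119.6, 119 and 109 CPM (counts scaled to a common library size) in VFDM vehicle, against 297, 162, 187 and 288 in VF vehicle, a log2 difference of -1.001 ± 0.21 (adjusted p = 0.0113). In VFDM IFN it had 104, 111, 162 and 102 CPM, against 167, 172, 178 and 159.7 CPM in VF IFN, so the library labelled VFDM IFN 3 went against its label, and results that rest on it are given without it as well. VF COMBO 1 held the highest level among the 31 libraries for 25 of the 35 genes. The same library had summed T and NK cell markers of 159 CPM (2.71 to 36.3 CPM in the others), and its results are treated likewise. Summed B and plasma cell markers were 147 CPM in VF COMBO 1 and 169 CPM in VF COMBO 3 (at most 33.9 CPM in the others).

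Levels are CPM after TMM scaling and, between genes, CPM per kilobase of exon. Mki67, a coat protein of mitotic chromosomes widely used as a proliferation marker, had the highest level per kilobase at 123 CPM. Top2a, the topoisomerase that untangles chromosomes, followed with 55.9, and cyclin Ccnb2 with 36.1 CPM per kilobase. The checkpoint kinase Ttk was lowest with 5.07. Together Mki67 and Top2a made up 32.3% and 13.2% of the summed CPM of the 35 genes. The share of Mki67 was highest in VFDM COMBO 3, at 41.2%, and lowest in VF vehicle 4, at 21.4%.

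The summed level of the 35 genes differed between groups by less than 2-fold. VFDM COMBO libraries had 3876, 4554 and 5104 CPM, VFDM AZA 3892, 3213, 3945 and 3919, VFDM IFN 2706, 3288, 4613 and 2769.6 and VFDM vehicle 2278, 2709, 2598 and 3524. All 3 VFDM COMBO libraries stood above all 4 of VFDM vehicle, while VFDM AZA and VFDM IFN overlapped with it. In VF COMBO the sums were 6691, 2944, 4690.1 and 4588 CPM, in VF AZA 5624, 4444, 5191 and 3691, in VF IFN 2249.6, 4058, 4091 and 2687 and in VF vehicle 3407, 3731, 4033 and 3532. VF COMBO spread over more than 2-fold and overlapped with every other group. Gene by gene, VFDM vehicle had the lowest group mean for 32 of the 35 genes. The highest mean was in VF COMBO for 16 genes, VF AZA for 13, VFDM COMBO for 4 and VF vehicle for 2. Without VF COMBO 1 these counts were 4 for VF COMBO, 19 for VF AZA, 9 for VFDM COMBO, 2 for VF vehicle and 1 for VFDM AZA. Without the library labelled VFDM IFN 3, the lowest mean was in VFDM vehicle for 25 genes and in VFDM IFN for 10. In sorted bulk RNA, fewer dividing cells and less of these transcripts per cell cannot be told apart.

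**Figure D1:**
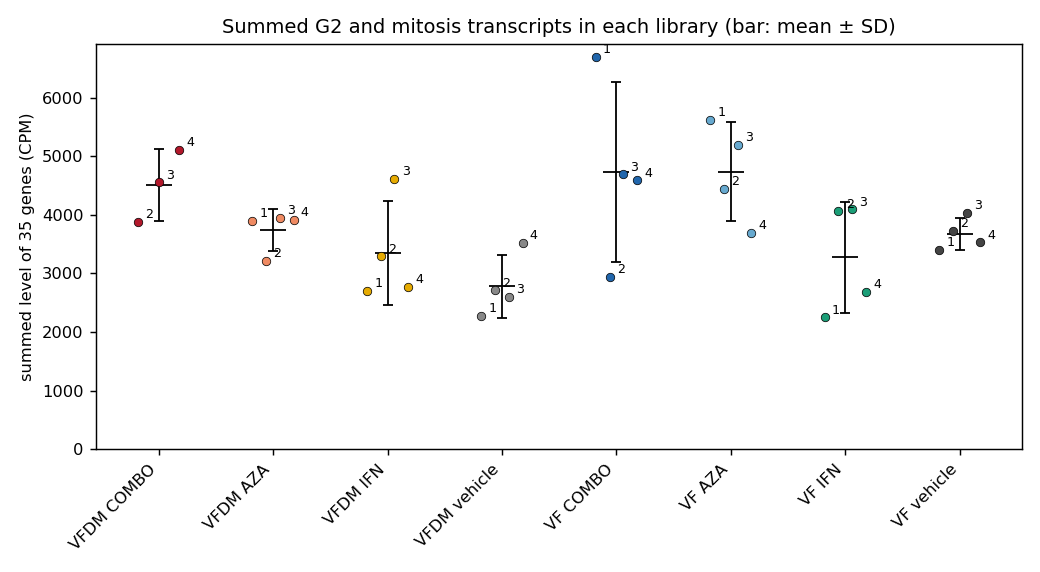
Summed level of the 35 G2 and mitosis genes (CPM, vertical axis) in each of 31 libraries, by group; points are libraries with their replicate numbers, the bar is the mean and its whiskers 1 SD. VFDM COMBO lies between 3876 and 5104 CPM, above VFDM vehicle at 2278 to 3524 CPM, and VF COMBO 1 is the highest library at 6691 CPM.

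COMBO in VFDM cells gave the clearest change. Compared with VFDM vehicle, 8 of the 35 genes rose and none fell (edgeR's quasi-likelihood test, Benjamini-Hochberg adjusted over 22172 genes), against 5.52% of all tested genes that rose and 10.5% that fell. They were the centromeric histone Cenpa, Mki67, the contractile-ring protein Anln, the cyclin Ccnb2, the spindle proteins Tacc3 and Tpx2, the kinetochore motor Cenpe and the ubiquitin-conjugating enzyme Ube2c. The log2 fold change was positive for 34 genes, with a median of 0.60 and a range of -0.04 to 1.31, beside a median of -0.08 over all genes. For 16 genes every VFDM COMBO library was above every VFDM vehicle library (13.3% of all genes), and 18 genes had an unadjusted p under 0.05. The VFDM COMBO group holds 3 libraries, and without its library 3 or its library 4 the count of genes that rose was 4.

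Among the CDK1 partners, cyclin B2 moved most clearly. Ccnb2 (chr9:70407692-70421547 on mm10) had 58.9, 94.9 and 65.1 CPM in VFDM COMBO, against 33.97, 36.05, 30.9 and 45.6 CPM in VFDM vehicle. The groups did not overlap, and the log2 fold change was 0.99 ± 0.27 (adjusted p = 0.00998, and 0.0771 without VFDM COMBO 3). Ccnb1, the cyclin whose destruction ends mitosis, had 33.3, 26.6 and 37.8 CPM in VFDM COMBO, against 9.12, 16.3, 15.5 and 21.6 in VFDM vehicle. These did not overlap either, but the change of 1.06 ± 0.38 missed the threshold in edgeR's test (adjusted p = 0.0552) and passed it with DESeq2 (0.0334) and limma voom (0.0145). Ccna2, the cyclin of S phase and G2, had 78.4, 60.2 and 104 CPM, against 50.6, 50.4, 54.8 and 70.5 CPM (adjusted p = 0.186), with overlap. The kinase itself, Cdk1, stood at 44.8, 34.5 and 58.5 CPM in VFDM COMBO and 37.3, 33.9, 38.1 and 42.8 CPM in VFDM vehicle. These levels interleaved, with a change of 0.27 ± 0.28 (adjusted p = 0.58).

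None of the 5 mitotic kinases and checkpoint genes passed on all 31 libraries with edgeR, DESeq2 or limma voom. All 5 changes were positive, with a median of 0.52. Ttk, the kinase that starts the spindle checkpoint, had 21.4, 29.4 and 28.8 CPM in VFDM COMBO, against 17.3, 15.2, 14.8 and 22.4 CPM in VFDM vehicle (log2 0.61 ± 0.28, adjusted p = 0.136). Bub1, a kinase of the kinetochore, had 38.9, 16.3 and 45.6 CPM, against 15.5, 26.6, 20.1 and 27.3 CPM, and Aurka, the kinase of the centrosome, 24.997, 9.61 and 32.4 CPM, against 13.8, 16.5, 13.3 and 18.8 CPM. In both genes VFDM COMBO 3 lay low, for Aurka below every vehicle library. Plk1 changed by 0.42 ± 0.31 and Bub1b, the checkpoint protein BubR1, by 0.27 ± 0.24.

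The chromosomal passenger complex corrects faulty attachments of chromosomes to the spindle. Its kinase Aurkb had 36.8, 28.8 and 30.4 CPM in VFDM COMBO, against 15.1, 21.1, 19.1 and 28.3 CPM in VFDM vehicle (adjusted p = 0.159). Birc5 (survivin) had 32.7, 48.3 and 50.7 CPM in VFDM COMBO, against 24.1, 22.4, 20.1 and 31.6 CPM in VFDM vehicle. Cdca8 (borealin) had 44.4, 44.8 and 51.4 CPM, against 25.9, 29.3, 29.1 and 39.4 CPM. Groups did not overlap for any of these 3 genes, yet none passed edgeR's test, Birc5 coming closest with 0.84 ± 0.32 (adjusted p = 0.067, and 0.0445 with DESeq2, which called it). Of the anaphase ubiquitin machinery, Ube2c (chr2:164769898-164778822) rose. It had 25.6, 58.8 and 37.7 CPM in VFDM COMBO, against 16.6, 16.03, 17.5 and 26.05 CPM in VFDM vehicle, a change of 1.09 ± 0.36 (adjusted p = 0.0366). The lowest COMBO library was below the highest vehicle library, and without VFDM COMBO 3 the adjusted p was 0.22. Cdc20, the activator of the anaphase-promoting complex, had 41.7, 30.3 and 28.5 CPM, against 18.4, 23.1, 26.7 and 29.8 CPM (adjusted p = 0.43).

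No kinesin passed edgeR's test in the fit reported here, while DESeq2 called Kif11 (adjusted p = 0.0404) and limma voom called none. Fitted on the compared groups only, edgeR's test called Kif11, Kif2c and Kif4 (adjusted p = 0.031, 0.0155 and 0.0465). With RLE size factors it called Kif11 (adjusted p = 0.0472). Kif11, the motor that pushes spindle poles apart, had 162, 177 and 242 CPM in VFDM COMBO, against 104, 119, 105 and 163 CPM in VFDM vehicle (log2 0.66 ± 0.24, adjusted p = 0.0619). Kif2c, which depolymerises microtubules at the kinetochore, had 26.4, 37.3 and 31.4 CPM, against 14.5, 18.7, 15.99 and 22.2 CPM, without overlap (adjusted p = 0.1). Kif20a, a motor of the central spindle, had 43.1, 30.5 and 68.5 CPM, against 26.8, 31.4, 32.4 and 40.1 CPM, and Kif23, another of the central spindle, changed least with 0.11 ± 0.24. Within this family the changes therefore ran from 0.11 to 0.83.

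Of 6 spindle proteins, Tacc3 and Tpx2 rose. Tacc3 (chr5:33658128-33678995), which stabilises kinetochore fibres, had 58.3, 53.95 and 74.8 CPM in VFDM COMBO, against 34.7, 30.8, 31.97 and 44.98 CPM in VFDM vehicle, a change of 0.81 ± 0.23 (adjusted p = 0.012, and 0.0683 without VFDM COMBO 4). Tpx2 (chr2:152847964-152895321), the activator of Aurora A on the spindle, had 117, 146 and 149 CPM, against 69.6, 80.8, 73.9 and 101 CPM, a change of 0.76 ± 0.23 (adjusted p = 0.0205, and 0.0678 with limma voom). Neither overlapped. Hmmr, which helps to organise spindle poles, had 59.3, 69.4 and 77.3 CPM, against 34.6, 43.1, 42.3 and 62.7 CPM (adjusted p = 0.148). At the low end Ckap2, a protein that promotes microtubule growth, was the only one of the 35 with a negative value, -0.04 ± 0.26, and Prc1, which bundles the central spindle, had 0.17 ± 0.23.

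The kinetochore and centromere held the largest change. Cenpa (chr5:30666777-30674830), the histone H3 variant that marks centromeres, had 103, 82.4 and 80.03 CPM in VFDM COMBO, against 31.1, 39.5, 30.9 and 40.9 CPM in VFDM vehicle. The lowest COMBO library was close to 2-fold above the highest vehicle library. Its mean was 88.6 ± 12.9 CPM in VFDM COMBO and 35.6 ± 5.35 CPM in VFDM vehicle (SD, n = 3 and 4), a log2 change of 1.31 ± 0.23 (adjusted p = 0.000112). Cenpe (chr3:135212537-135273611), the motor that aligns chromosomes, had 146, 219 and 197 CPM, against 93.7, 113, 110.5 and 135 CPM, a change of 0.73 ± 0.23 without overlap (adjusted p = 0.0267). That call was lost, at an adjusted p of 0.118, without libraries of fewer than 20000 detected rows. Ndc80, which holds the microtubule end, had 35.6, 65.8 and 45.5 CPM, against 29.6, 30.7, 31.05 and 36.3 CPM (adjusted p = 0.146).

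In cytokinesis, Anln (chr9:22332012-22389188), which links actin, myosin and septins in the contractile ring, had 81.6, 90.4 and 85.2 CPM in VFDM COMBO, against 44.6, 43.1, 40.997 and 55.5 CPM in VFDM vehicle. All COMBO values were higher, and the change was 0.90 ± 0.24 (adjusted p = 0.00819). Ect2, the exchange factor that activates RhoA at the division plane, had 45.1, 36.2 and 45.03 CPM, against 23.6, 26.8, 21.5 and 27.7 CPM, without overlap but with an adjusted p of 0.161. For Ect2 limma voom passed the threshold (adjusted p = 0.0441) and DESeq2 did not. Its partner Racgap1 had 41.5, 81.9 and 67.04 CPM, against 37.3, 45.3, 49.3 and 57.3 CPM, with overlap (adjusted p = 0.557). Over all 31 libraries these partners varied most, Ect2 between 3.72 CPM in VFDM IFN 4 and 81.3 CPM in VF COMBO 1, and Racgap1 between 10.5 CPM in VF COMBO 3 and 104 CPM in VF COMBO 1. Mki67 (chr7:135689784-135716361) had 1362, 1877 and 1983 CPM in VFDM COMBO, against 713, 888, 846 and 1159 CPM in VFDM vehicle. Every COMBO library was higher, and the change was 0.95 ± 0.23 (adjusted p = 0.00378). Top2a had 485, 431 and 599 CPM, against 292, 348, 340.3 and 478 CPM (log2 0.47 ± 0.24, adjusted p = 0.19).

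**Figure D2:**
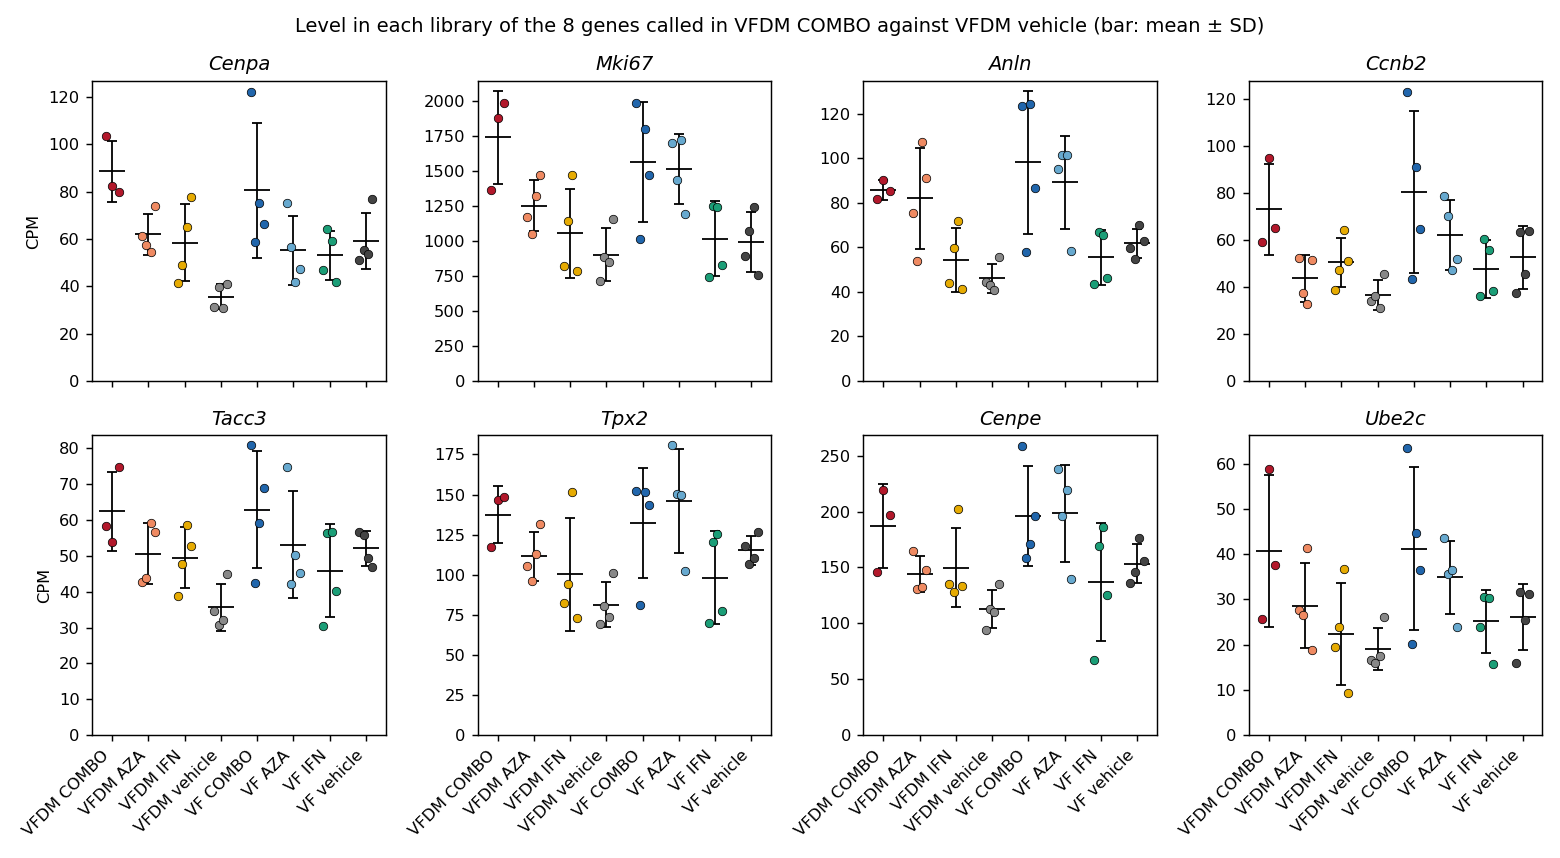
Level (CPM, vertical axes starting at 0) of the 8 genes that rose in VFDM COMBO against VFDM vehicle, in every library of the 8 groups; points are libraries, the bar is the mean and its whiskers 1 SD. Cenpa, Mki67, Anln, Ccnb2, Tacc3, Tpx2 and Cenpe do not overlap between VFDM COMBO and VFDM vehicle, while Ube2c does, and VF COMBO spreads widely in each panel.

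Other cell-cycle genes were higher in the same comparison. Of 73 other G2 and mitosis genes 18 rose and none fell, with a median log2 change of 0.56. They included the kinetochore scaffold Knl1 (1.61 ± 0.19), the midbody kinase Cit (1.11 ± 0.20), the CDK-binding protein Cks2 (1.76 ± 0.35) and the centrosomal kinase Nek2 (1.20 ± 0.26). Of 35 DNA replication genes 11 rose and none fell (median 0.55), among them Mcm10 (1.39 ± 0.25) and the helicase subunits Mcm7, Mcm2 and Mcm4 (0.70, 0.92 and 0.72).

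Among 20 regulators of the mitotic programme, 5 rose and 2 fell. Mybl2, which encodes B-MYB, had 30.99, 43.8 and 65.9 CPM in VFDM COMBO, against 14.6, 21.5, 17.4 and 26.9 CPM in VFDM vehicle, a change of 1.22 ± 0.27. The E2F factors E2f2 and E2f8 rose by 2.45 and 2.23, E2f8 being a repressor, and the E2F partner Tfdp1 by 0.63, while the pocket protein Rbl2 had -0.60. Of 11 G1 cyclins, kinases and their drivers, 3 rose and 3 fell. The G1 kinase Cdk6 had 1555 ± 45.9 CPM in VFDM COMBO and 399 ± 37.3 CPM in VFDM vehicle (SD, n = 3 and 4), and cyclin E1 (Ccne1) rose by 1.96. Mycn (-2.03) and cyclin D1, Ccnd1 (-1.22), fell. Of 12 cell cycle inhibitors 4 rose and 1 fell. The one that fell was Cdkn1c, which encodes p57 and is known to keep stem cells at rest, with 0.252, 2.42 and 1.35 CPM in VFDM COMBO, against 14.9, 12.5, 15.5 and 10.5 CPM in VFDM vehicle (log2 -3.34 ± 0.78). Rb1, Btg2 and Fzr1 rose by 0.85, 1.74 and 0.93, so inhibitors moved in both directions.

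Markers of cell identity also differed in this comparison. Of 18 LT-HSC markers 13 fell in VFDM COMBO against VFDM vehicle and none rose, and their summed level was 1813, 1815 and 1675 CPM, against 4011, 3788, 3973 and 3624 CPM. The stem cell factor Hlf had 33.04, 40.2 and 32.8 CPM, against 451, 505, 428 and 415 CPM, and Procr, the surface marker EPCR, averaged 0.176 ± 0.228 CPM, against 36.2 ± 2.92 CPM. Of 18 erythroid markers 16 rose and 1 fell, with sums of 2746, 19526 and 4463 CPM in VFDM COMBO and 594, 569, 565 and 571 CPM in VFDM vehicle. Gata1, the erythroid and megakaryocytic transcription factor, had 108, 89.6 and 69.7 CPM, against 8.33, 7.63, 6.98 and 9.74 CPM. Neutrophil and monocyte markers rose in 5 of 11 cases, with sums of 907, 1507 and 635 CPM, against 166, 96.7, 142 and 131 CPM. The part of these differences in the rise of the mitotic genes was not tested.

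**Figure D3:**
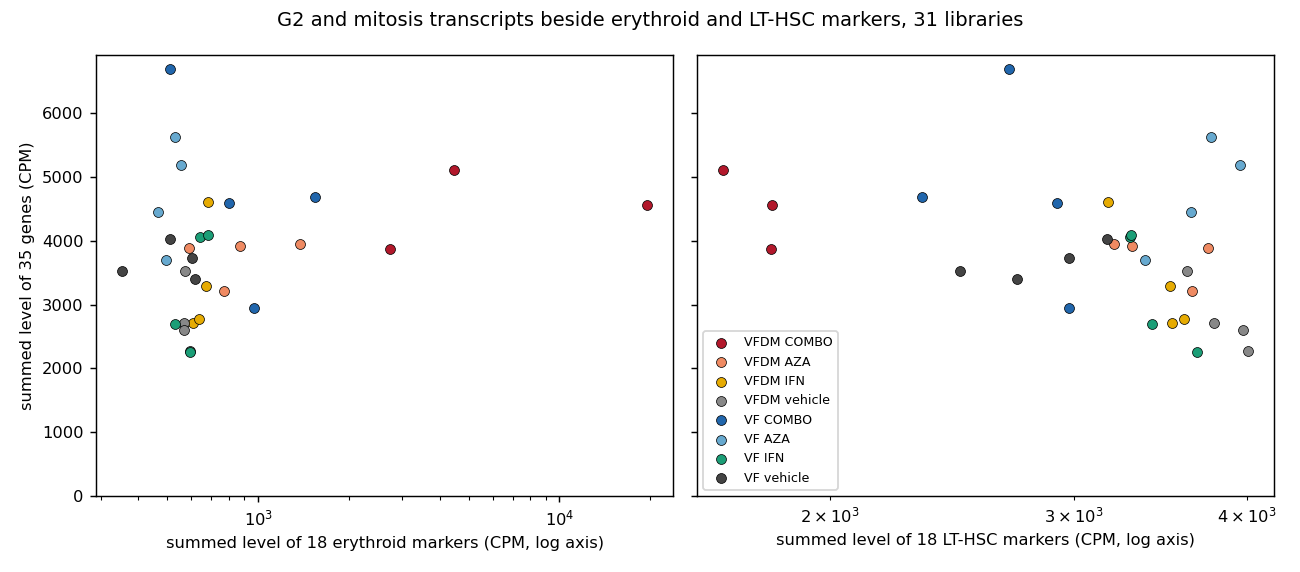
Summed level of the 35 genes (CPM, vertical axes) against the summed level of 18 erythroid markers (left) and 18 LT-HSC markers (right), both in CPM on log axes; each point is 1 of 31 libraries, coloured by group. VFDM COMBO libraries hold the highest erythroid and the lowest LT-HSC sums, and VF COMBO 1 holds the highest G2 and mitosis sum, 6691 CPM.

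Each drug alone in VFDM cells gave smaller differences. With AZA no gene passed edgeR's test (0.925% of all genes did), 13 had an unadjusted p under 0.05, and DESeq2 called 2 and limma voom 1. The change was positive for 33 genes with a median of 0.47, against -0.04 over all genes. Anln had 75.5, 53.9, 107 and 91.2 CPM in VFDM AZA, against 44.6, 43.1, 40.997 and 55.5 CPM in VFDM vehicle, with overlap in 1 AZA library (log2 0.83 ± 0.22, adjusted p = 0.0683). Cenpa had 61.3, 57.7, 54.5 and 74.1 CPM, against 31.1, 39.5, 30.9 and 40.9 CPM, without overlap (log2 0.80 ± 0.22, adjusted p = 0.0758). Plk1, Aurkb, Kif4 and Hmmr also did not overlap, which made 5 genes of 35 (5.11% of all genes). Only Kif23 and Ect2 had negative values. Beside them, 7 of 18 erythroid markers and 2 of 73 other G2 and mitosis genes, Knl1 (0.73 ± 0.17) and Ckap2l (0.95 ± 0.21), rose.

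With IFN in VFDM cells no gene passed (0.965% of all genes did), 3 had an unadjusted p under 0.05, and DESeq2 called 0 and limma voom 1. Changes were positive for 33 genes with a median of 0.30. Cenpa had 41.6, 48.9, 65.2 and 77.8 CPM in VFDM IFN, against 31.1, 39.5, 30.9 and 40.9 CPM in VFDM vehicle, without overlap (log2 0.71 ± 0.22, adjusted p = 0.166), and Plk1 changed by 0.67 ± 0.29. Cenpa was the only gene without overlap, against 5.87% of all genes. Without the library labelled VFDM IFN 3, the highest of its group for 34 genes (all but Cenpa), the median was 0.08 and 25 genes were positive.

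**Figure D4:**
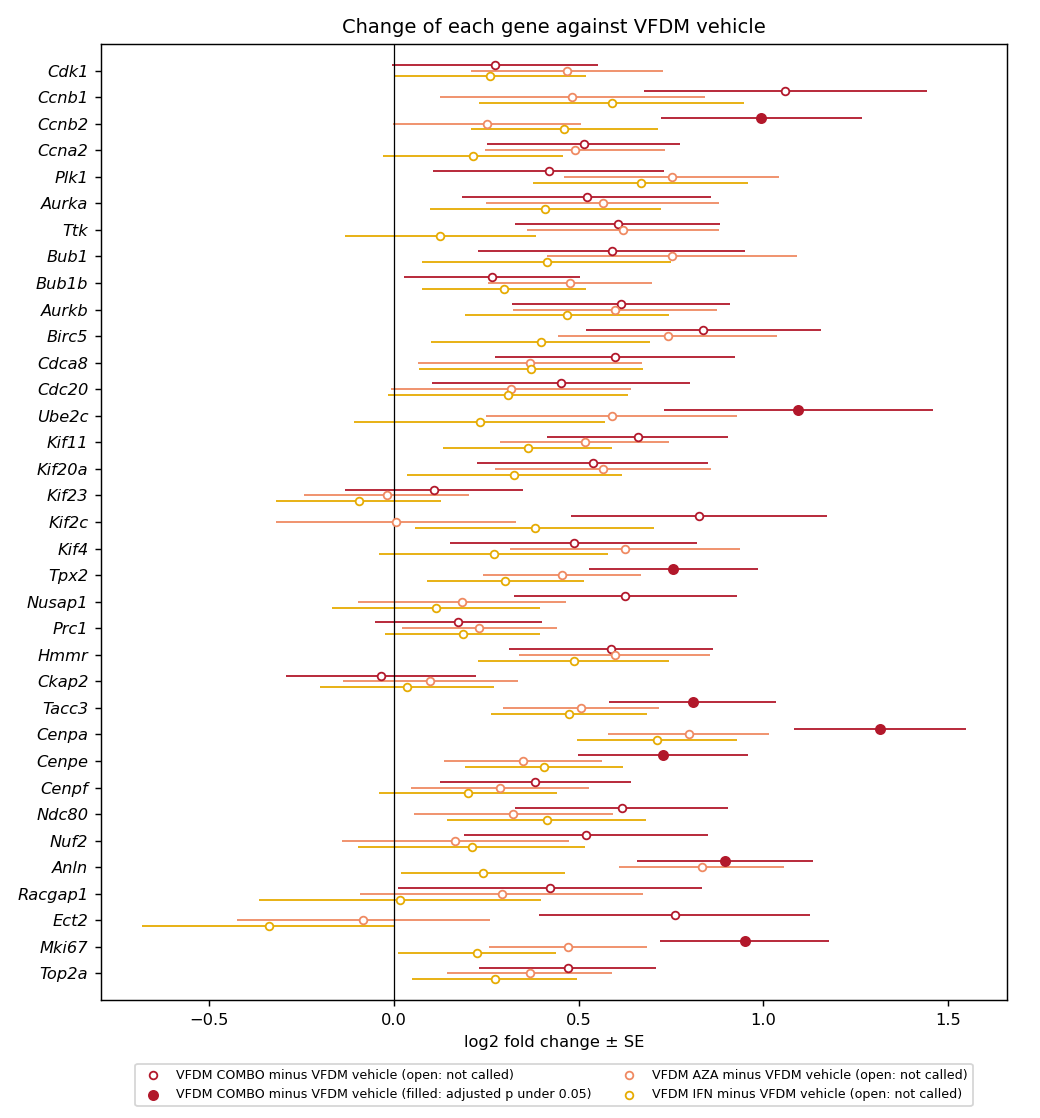
log2 fold change against VFDM vehicle (horizontal axis, ± SE) of the 35 genes, ordered by role, for VFDM COMBO, VFDM AZA and VFDM IFN, which share the same 4 vehicle libraries. Filled points passed the test; 8 do so for COMBO, led by Cenpa at 1.31, and none for AZA or IFN.

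COMBO was also set against each drug alone. In VFDM cells 1 gene, Mki67, rose in COMBO against IFN (1.6% of all genes rose and 6.28% fell), with 1362, 1877 and 1983 CPM in VFDM COMBO, against 819.8, 1141, 1468 and 783 CPM in VFDM IFN. The groups overlapped through the library labelled VFDM IFN 3, and the change was 0.72 ± 0.23 (adjusted p = 0.0458). The call was lost with limma voom (adjusted p = 0.215), without libraries of fewer than 20000 detected rows (0.0781), on the compared groups only (0.0556) and without the filter on low counts (0.107). It was also lost without VFDM COMBO 3 or 4 (0.105 and 0.141) and without VFDM IFN 1 or 4 (0.117 and 0.11). Cenpa, Anln and Ect2 did not overlap (6.98% of all genes), and 31 genes were positive with a median of 0.30. Without the library labelled VFDM IFN 3, 5 genes rose (Mki67, Ect2, Anln, Tpx2 and Ube2c) and the median was 0.48. In that setting 6.5% of all genes were called in either direction. Against AZA in VFDM cells no gene passed (7.82% of all genes did), 5 had an unadjusted p under 0.05, DESeq2 and limma voom called 0, and the median was 0.13. Ccnb2, with 58.9, 94.9 and 65.1 CPM in VFDM COMBO, against 52.5, 37.6, 32.7 and 51.6 CPM in VFDM AZA, had the smallest p (log2 0.74 ± 0.27, adjusted p = 0.0885), followed by Kif2c (0.82 ± 0.35). Ccnb2, Cdca8, Cenpa and Ect2 did not overlap (5.77% of all genes).

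In VFDM vehicle against VF vehicle, the comparison of Dnmt3a deletion under vehicle, all 35 log2 changes were below 0, with a median of -0.50, beside -0.01 over all genes. They ran from -0.93 for Cdc20 to -0.0036 ± 0.24 for Ckap2. No gene passed edgeR's test (0.956% of all genes did), 15 had an unadjusted p under 0.05, and DESeq2 called 1 and limma voom 3. For 17 genes every VFDM vehicle library was below every VF vehicle library (6.87% of all genes), among them Cdk1, Plk1, Aurka, Bub1b, Cenpa, Ndc80 and Top2a. Bub1b had 63.8, 72.9, 73.96 and 97.1 CPM in VFDM vehicle, against 135, 117, 125 and 177 CPM in VF vehicle (log2 -0.85 ± 0.22, adjusted p = 0.0559). Cenpa had 31.1, 39.5, 30.9 and 40.9 CPM, against 51.1, 55.3, 53.5 and 76.9 CPM (log2 -0.73 ± 0.22, adjusted p = 0.0992).

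The VFDM vehicle libraries are also the controls of the treated VFDM groups above. Related lists were lower as well. All 35 DNA replication genes had negative changes and 3 fell, Mcm2 (-0.72), Cdt1 (-0.79) and Pold1 (-1.004). Of 73 other G2 and mitosis genes 4 fell and none rose, namely Kifc1 (-1.34), Ncapd2 (-0.86), Dlgap5 (-0.80) and Cit (-1.02). The inhibitor Cdkn2c, p18, fell as well (-1.78 ± 0.40). Summed LT-HSC markers were 4011, 3788, 3973 and 3624 CPM in VFDM vehicle, against 2731, 2976, 3169 and 2483 CPM in VF vehicle, and 2 of 18 rose. Small and ribosomal RNA differed between these groups, at 5.53% to 8.43% of counts in VFDM vehicle and 8.49% to 37.5% in VF vehicle. Without VF vehicle 1 and 4 the median of the 35 genes was -0.54, but this setting kept VF vehicle 2, at 24.9% of counts. On protein-coding rows only the median was -0.50. The part of small and ribosomal RNA in this difference was not tested.

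In VF cells no treatment gave a call in edgeR's test. With IFN against VF vehicle (2.43% of all genes called), 28 of 35 changes were negative with a median of -0.18 (-0.33 without VF IFN 3 and -0.06 without VF IFN 1), 1 gene had an unadjusted p under 0.05, and DESeq2 and limma voom called 0. That gene, Bub1b, had 53.95, 116, 114 and 74.98 CPM in VF IFN, against 135, 117, 125 and 177 CPM in VF vehicle, without overlap (log2 -0.63 ± 0.22, adjusted p = 0.156), and Ect2 had -0.67 ± 0.34. Bub1b was the only gene without overlap, against 6.02% of all genes. The 4 VF IFN libraries split into 2 low and 2 high ones in the summed level, at 2250 and 2687 CPM, and 4058 and 4091 CPM.

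With AZA in VF cells (1.2% of all genes called), 29 changes were positive with a median of 0.27, 6 had an unadjusted p under 0.05, and DESeq2 called 1, Hmmr, and limma voom 0. Hmmr had 100.01, 136, 101 and 68.4 CPM in VF AZA, against 51.8, 55.8, 74.8 and 41.3 CPM in VF vehicle, with overlap in 1 AZA library (log2 0.85 ± 0.26, adjusted p = 0.0964). Mki67 had 1697, 1431, 1721 and 1194 CPM, against 892, 1072, 1245 and 754 CPM (log2 0.61 ± 0.21, adjusted p = 0.161). Prc1 was the only gene without overlap (2.27% of all genes). With COMBO in VF cells (8.29% called), 29 changes were positive with a median of 0.30, against -0.11 over all genes, and 6 had an unadjusted p under 0.05. DESeq2 called 3 (Hmmr, Anln and Mki67) and limma voom 0, and the groups overlapped for every gene. Mki67 had 1984, 1009.8, 1798 and 1468 CPM in VF COMBO, against 892, 1072, 1245 and 754 CPM in VF vehicle (log2 0.66 ± 0.21, adjusted p = 0.0512), and Anln 123, 57.9, 124 and 86.6 CPM, against 59.7, 54.8, 70.1 and 62.6 CPM (log2 0.67 ± 0.22, adjusted p = 0.0576). In both genes VF COMBO 2 was low. Without VF COMBO 1 the median was 0.14, with 0 calls and 10% of all genes called. Without VF COMBO 2 there were 5 calls, Hmmr, Anln, Mki67, Ccnb2 and Kif11. The share of all genes called in that setting is not given here.

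COMBO in VF cells was above IFN in all 35 genes, with a median of 0.46. In 18 of them the unadjusted p was under 0.05, but there was no call (0.00902% of all genes called), while DESeq2 called 1 and limma voom 0. Anln had 123, 57.9, 124 and 86.6 CPM in VF COMBO, against 43.6, 67.1, 65.5 and 46.3 CPM in VF IFN (log2 0.82 ± 0.22, adjusted p = 0.225), and Aurkb changed by 0.83 ± 0.28. Without VF COMBO 1 the median was 0.34 and 26 genes were positive. Against AZA in VF cells the median was 0.05, 1 gene had an unadjusted p under 0.05 and none was called by any of the 3 tools (1.85% of all genes called by edgeR). That gene was Cenpa (0.55 ± 0.22), followed by Aurkb (0.43 ± 0.28), and the median was -0.20 without VF COMBO 1.

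Under treatment the genotypes differed less clearly, and none of the 3 tools called a gene. In VFDM AZA against VF AZA (0.74% of all genes called by edgeR), 32 changes were negative with a median of -0.32 and 8 had an unadjusted p under 0.05. Kif2c had 26.5, 18.99, 12.03 and 14.2 CPM in VFDM AZA, against 50.1, 45.8, 30.96 and 25.3 CPM in VF AZA (log2 -1.09 ± 0.33, adjusted p = 0.147), with overlap through 1 library of each group, and Prc1 had -0.64 ± 0.21. Kif23, Nusap1, Ndc80 and Ect2 did not overlap (2.15% of all genes). In VFDM COMBO against VF COMBO (5.11% called) the median was -0.18 with 3 unadjusted p under 0.05, led by Plk1 (-0.79 ± 0.32) and Aurkb (-0.73 ± 0.30), and it was 0.16 without VF COMBO 1, the opposite direction. Aurkb was the only gene without overlap (4.6% of all genes). In VFDM IFN against VF IFN (0.00902% called) the median was 0.03, no unadjusted p was under 0.05, and the smallest were those of Ttk (-0.27 ± 0.26) and Ect2 (-0.29 ± 0.34). Without the library labelled VFDM IFN 3 the median was -0.18.

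The difference of each response between genotypes was tested as an interaction, and no gene passed with any of the 3 tools. Cenpa was among the 2 smallest p-values in all 3 tests. Its response was larger in VFDM than in VF cells by 0.87 ± 0.32 log2 units for COMBO (adjusted p = 0.117, 3.74% of all genes called), by 0.90 ± 0.31 for AZA (adjusted p = 0.241, 0.582% called) and by 0.87 ± 0.31 for IFN (adjusted p = 0.637, 0% called). These tests share the vehicle libraries of both genotypes. Medians over the 35 genes were 0.29 for COMBO, 0.16 for AZA and 0.52 for IFN, with 1, 2 and 4 unadjusted p under 0.05. The other of the 2 smallest p-values was that of Tpx2 for COMBO (0.56 ± 0.31), Birc5 for AZA (0.93 ± 0.42) and Bub1b for IFN (0.92 ± 0.31). Without VF COMBO 1 the COMBO difference of Cenpa passed, at 1.13 ± 0.30 (adjusted p = 0.0293), and the median was 0.59, against 0.12 without VF COMBO 2. The median for AZA was 0.01 without VF AZA 4 and 0.30 without VFDM vehicle 4. The median for IFN was 0.28 without the library labelled VFDM IFN 3. COMBO was also set against the sum of its parts on the log scale. No gene passed in VFDM (2.03% called, 2 unadjusted p under 0.05, median -0.17) or in VF cells (0.0857% called, 3 unadjusted, median 0.20), and DESeq2 and limma voom called 0. The VFDM median was 0.04 without the library labelled VFDM IFN 3, and the VF median was -0.01 without VF COMBO 1, with 17 genes positive. The smallest p-values were those of Ect2 (1.18 ± 0.50) and Plk1 (-1.0005 ± 0.43) in VFDM cells, and of Cenpa (0.70 ± 0.31) and Bub1b (0.65 ± 0.31) in VF cells.

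**Figure D5:**
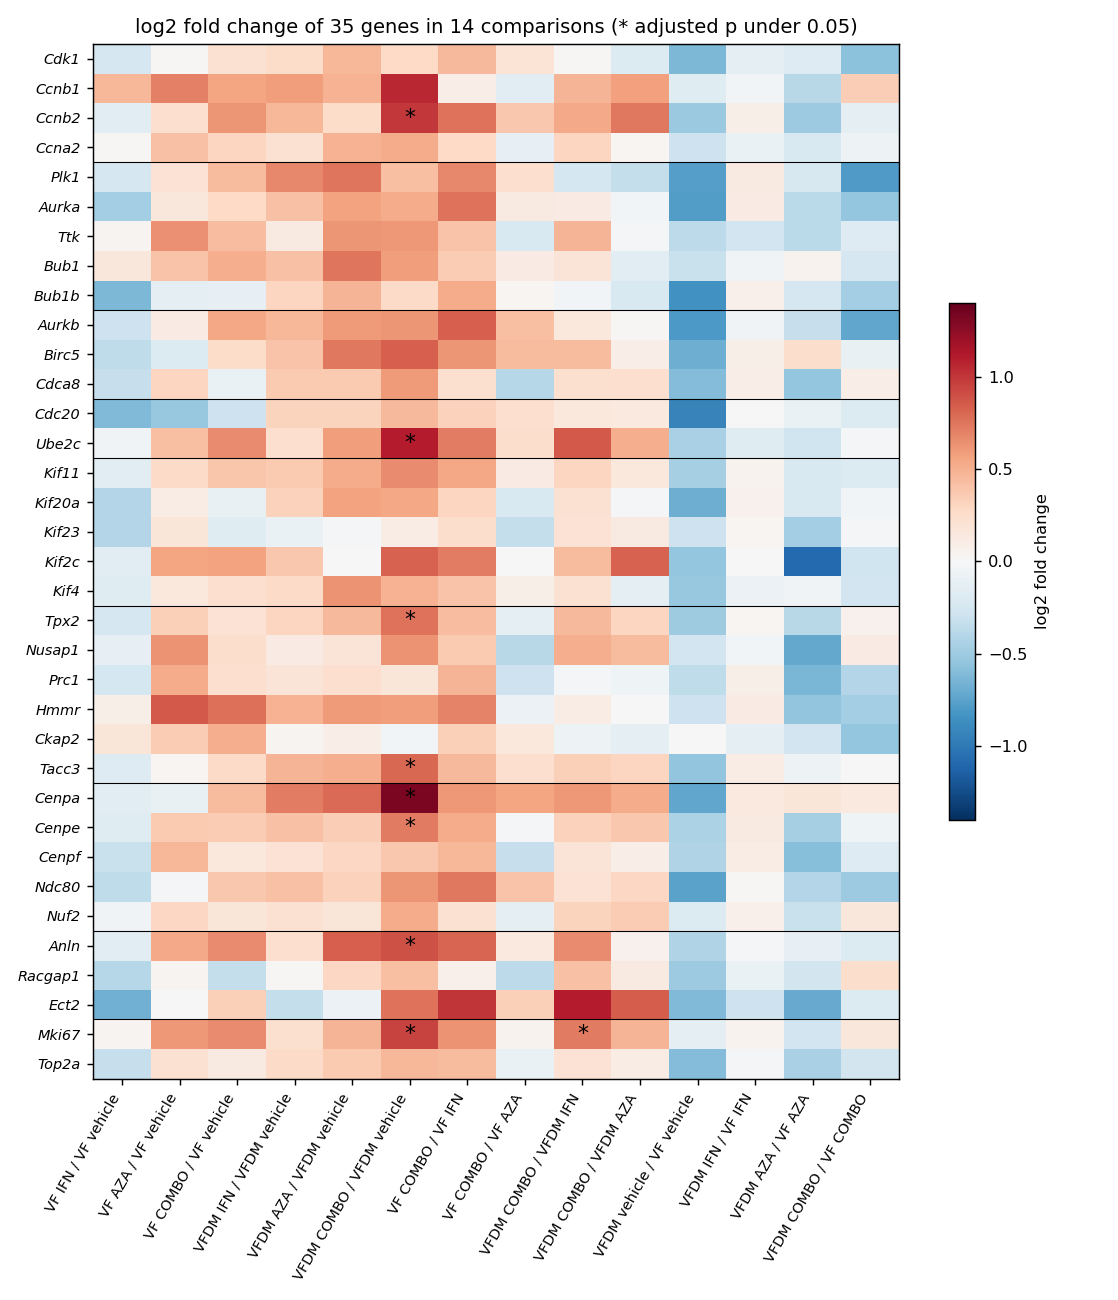
log2 fold change (colour, red higher and blue lower in the first-named group) of the 35 genes in 14 comparisons of groups; lines separate roles and asterisks mark adjusted p under 0.05. VFDM COMBO against VFDM vehicle holds 8 of the 9 asterisks, and the column of VFDM vehicle against VF vehicle is blue or white throughout.

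Some of these rows are less certain than others. The strand setting of the counting is not given in the sources used here, and 10 of the genes share exonic bases with a gene on the opposite strand. Ube2c shares 592 bases with Tnnc2, Tacc3 289 with Tmem129, Prc1 911 with Rccd1 and Kif20a 1271 with Cdc23. The others are Ccna2, Kif4, Nusap1, Cdca8, Plk1 and Cdc20, and Top2a holds a small nucleolar RNA gene on its own strand. Ccnb1, Ccnb2 and Kif4 have annotated pseudogenes, with which reads could have been shared.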

How the data were processed

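RNA was extracted with a PicoPure kit from cells sorted into its buffer, and libraries were made with the Takara SMART-Seq Stranded kit, per the labels' protocols. The authors deposited raw counts per gene for 55492 rows and 31 libraries. The submitters' processing notes name R 4.3.0, featureCounts, STAR 2.7.10a, FastQC 0.11.5 and the mm10 genome. The sources used here do not state the annotation, the strand setting or how reads with several positions were counted. Symbols, positions and exon lengths are those of GENCODE vM21.

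edgeR 4.0.16 in R 4.3.3 was used for the tests. Its filterByExpr (minimum count 10, minimum total 15) left 22172 rows, for which TMM factors were then taken. All 31 libraries entered a robust quasi-likelihood fit that had 1 mean per group. In 19 comparisons, a gene was called at an adjusted p below 0.05 (two-sided, Benjamini-Hochberg across these rows). The SE is the log2 fold change divided by the square root of F. CPM are per TMM-scaled library. Counting error was small beside the spread of replicates, whose pairwise chi-square was at least 21.02 times its degrees of freedom. The procedure was tested on simulated data.

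The 35 genes and the other lists were chosen with earlier results of these data known, so no count over a list is independent evidence. Values per library are given for up to 3 genes of each role with the smallest p in VFDM COMBO against VFDM vehicle, and for Mki67 and Cdk1. Other comparisons name called genes or the 2 with the smallest p, and other lists up to 4 genes, with Dnmt3a always. Genes named because their groups did not overlap were picked after their values were seen. Alternatives were RLE size factors, no filter, DESeq2 1.42.0, limma voom with quality weights (limma 3.58.1), a replicate block, the compared groups only, protein-coding rows only, no VF vehicle 1 and 4, no libraries under 20000 detected rows and each library of a comparison, with VF COMBO 1 and the library labelled VFDM IFN 3, left out in turn. TMM factors taken before the filter were added after seeing the data. Library 1 of VFDM COMBO was not analysed here.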

Additional observations from a re-analysis of the deposited data

Results flagged for a closer look

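Dixon's test of the lowest and highest library was run in 252 groups of 4 libraries (35 genes and their sum in 7 groups), and 16 passed its 95% limit for 4 values (9 high, 7 low). Chance alone gives about 1 in 20 groups. The library labelled VFDM IFN 3 gave 6 of them, each above the other VFDM IFN libraries: Cdk1 at 61.3 CPM (38.3 to 41.5 in the others), Prc1 at 120.6 (81.3 to 83.8), Ckap2 at 43.7 (25.9 to 28.3), Cenpe at 202 (128 to 135), Cenpf at 281 (168 to 179) and Ndc80 at 57.2 CPM (36.1 to 38.7). VFDM AZA 2 was low in the summed level, with 3213 CPM (3892 to 3945 in the others), and in Ccna2, with 67.3 CPM (82.3 to 85.1).

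In VF COMBO, library 2 was low in Ttk with 18.3 CPM (32.9 to 35.7) and in Tpx2 with 81.1 CPM (144 to 152), and library 1 was high in Aurkb with 93.5 CPM (36.98 to 42.2). The remaining 5 came from 5 libraries. Birc5 had 32.9 CPM in VF vehicle 1 (40.5 to 42.0), and Cenpa 76.9 CPM in VF vehicle 4 (51.1 to 55.3). Ube2c stood at 26.05 CPM in VFDM vehicle 4 (16.03 to 17.5), Anln at 58.2 CPM in VF AZA 4 (95.3 to 101.6) and Ect2 at 17.2 CPM in VFDM AZA 4 (25.2 to 26.1).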

How the results depend on the processing

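The log2 changes of the 9 calls kept their sign in every setting run. In VFDM COMBO against VFDM vehicle, Cenpa, Anln and Mki67 were called in all 18 alternatives, Ccnb2 and Tacc3 in 17, Tpx2 in 15, Cenpe in 13 and Ube2c in 11. The count of 8 was 17 on the compared groups only, 13 without libraries under 20000 detected rows, and 4 to 12 with 1 library left out. DESeq2 kept all 8 and also called Ccnb1, Birc5 and Kif11. With limma voom Ube2c, Tpx2 and Cenpe were lost, and Ccnb1 and Ect2 were called. The shares of all genes called in these settings of this comparison are not given here. In VFDM COMBO against VFDM IFN, 1 call became 2 with RLE size factors, 2 without VF vehicle 1 and 4, 4 on protein-coding rows, 3 with DESeq2, 0 without the filter and 0 to 5 with a library left out. On the compared groups only the 1 call was Anln in place of Mki67, and with limma voom or without libraries under 20000 detected rows it was Cenpa. Other comparisons had 0 calls as reported above. For VF COMBO against VF vehicle, RLE, TMM before the filter, protein-coding rows and DESeq2 each gave 3, no filter 1, and leaving out a library 0 to 5. For VFDM vehicle against VF vehicle there were 3 without libraries under 20000 detected rows, 3 with limma voom, 1 with DESeq2, 1 on the compared groups only (Ndc80) and 0 to 1 with a library left out. For VFDM AZA against VFDM vehicle there were 2 on the compared groups only, protein-coding rows or DESeq2, 1 with no filter or limma voom, and 0 to 2 with a library left out. For VFDM IFN against VFDM vehicle, Cenpa was the 1 call on the compared groups only, with limma voom and without libraries under 20000 detected rows. DESeq2 gave 1 for VF AZA against VF vehicle and 1 for VF COMBO against VF IFN, and protein-coding rows gave 1 for VFDM COMBO against VFDM AZA. Leaving out a library gave 0 to 1 in these 3 and in the genotype difference of the COMBO response. With 1 library left out, the median log2 change over the 35 genes ran from 0.18 to 0.41 for VF AZA, from 0.14 to 0.55 for VF COMBO and from 0.08 to 0.44 for VFDM IFN, each against its vehicle. It ran from -0.20 to 0.23 for VF COMBO against VF AZA and from 0.10 to 0.29 for VFDM COMBO against VFDM AZA. The cause of these moves was not tested.

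Replicate numbers did not pair the libraries: deviations of same-numbered libraries correlated at 0.00267 on average over 105 pairs (-0.226 to 0.164), and a replicate block moved only VF COMBO against VF vehicle, to 1 call. Depth did not keep any of the 35 genes from being tested, but 3 or 4 libraries a group limit which changes under 2-fold can be called.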
